A study of Mus musculus with 20 samples.

Results

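The forkhead genes described here encode transcription factors that share a winged-helix DNA-binding domain. They were every gene on a whole-genome mouse array whose name in the scanner files began with Fox and a class letter from a to s. This rule found 38 genes and 54 of the 41174 non-control probes, and each gene was represented by its brightest probe, the one with the highest mean log2 signal over the 20 arrays. The level of 27 of the 38 genes was far enough above background to be tested, among 32460 probes tested in all. The files list Foxf1 and Foxo3 under the older names Foxf1a and Foxo3a, which are used here.

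The arrays compared uterine RNA from ovariectomized C57bl6/J mice at least 10 weeks old, given 1 subcutaneous injection after 10 to 14 days without ovaries. E2 (estradiol, the main ovarian estrogen) was given at 250 ng, and BPA (bisphenol A) or HPTE (the estrogenic metabolite of methoxychlor) at 750 µg, each in 100 µl sesame oil. Uteri were collected after 2 h or 24 h and each array held 1 uterus, with 3 arrays a group and 2 for E2 at 24 h. The 3 vehicle uteri received oil and are labelled 24 h, so in each contrast of a 2-h group with vehicle, treatment and the time since injection cannot be told apart. The uterus was analysed whole, so for every gene below, fewer cells of a type and less RNA per cell cannot be told apart.

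Forkhead factors are grouped by sequence into lettered classes. FoxA proteins open chromatin, and Foxa2 is needed for uterine glands to form. FoxO proteins activate genes of cell cycle arrest and fasting metabolism until the kinase Akt phosphorylates them and they leave the nucleus, and Foxm1 drives the genes of mitosis in dividing cells. Several others, among them Foxc1, Foxc2, Foxf1 and Foxl2, act in mesenchymal tissues, and Foxj1 switches on the genes of motile cilia.

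The sequences just upstream of 4 genes are shown because their probes stand for the patterns below: Foxc1 and Foxl2 for the rise at 2 h, Foxk2 for a probe that rose at 2 h and then parted by compound at 24 h, and Foxo3 for the decline at 2 h. Only the brightest Foxo3 probe showed that decline. Foxc1 passed the test described below with E2 and HPTE but not with BPA. The Foxl2 results with BPA and HPTE did not hold when certain single arrays were left out. Foxc2, Foxf1 and Foxn2, which passed at 2 h with each compound, had no upstream window in the RefSeq table. Each is the 250 bases before the annotated transcription start in RefSeq, build GRCm38.p6, written 5′ to 3′ on the strand of the gene. The windows are chr13:31806396-31806645 (+) for Foxc1, chr9:98955357-98955606 (+) for Foxl2, chr11:121259737-121259986 (+) for Foxk2 and chr10:42276696-42276945 (-) for Foxo3. Capitals mark every match, on either strand, to GGTCA (an estrogen response element half-site), TGANTCA (the AP-1 site), GGGCGG (the GC box bound by Sp1), CCAAT or TGTTTAC (a forkhead site).
Foxc1: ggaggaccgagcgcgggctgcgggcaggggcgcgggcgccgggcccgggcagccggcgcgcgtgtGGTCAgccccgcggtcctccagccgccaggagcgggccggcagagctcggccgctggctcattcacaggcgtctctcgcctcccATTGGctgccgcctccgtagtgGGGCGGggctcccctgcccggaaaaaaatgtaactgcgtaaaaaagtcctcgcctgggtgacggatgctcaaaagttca
Foxl2: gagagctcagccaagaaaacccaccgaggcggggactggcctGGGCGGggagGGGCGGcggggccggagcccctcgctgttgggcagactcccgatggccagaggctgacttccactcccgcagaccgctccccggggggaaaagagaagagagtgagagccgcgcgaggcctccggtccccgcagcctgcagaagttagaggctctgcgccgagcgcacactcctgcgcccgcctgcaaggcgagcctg
Foxk2: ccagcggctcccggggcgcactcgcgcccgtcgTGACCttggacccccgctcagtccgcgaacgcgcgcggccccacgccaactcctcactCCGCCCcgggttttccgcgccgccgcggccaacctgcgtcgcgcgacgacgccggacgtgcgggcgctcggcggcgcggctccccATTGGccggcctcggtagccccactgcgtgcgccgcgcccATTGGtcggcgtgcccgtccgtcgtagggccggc
Foxo3: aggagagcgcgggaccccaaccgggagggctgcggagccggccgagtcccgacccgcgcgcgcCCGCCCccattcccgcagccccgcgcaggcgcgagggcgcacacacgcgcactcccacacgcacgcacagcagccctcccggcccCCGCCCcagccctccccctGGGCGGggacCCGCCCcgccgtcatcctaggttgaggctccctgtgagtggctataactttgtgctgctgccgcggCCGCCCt
Foxc1 held 1 half-site, 1 GC box and 1 CCAAT box, Foxk2 held 1 half-site, 1 GC box and 2 CCAAT boxes, and only GC boxes were found in Foxl2 (2) and Foxo3 (5). Of the 27 tested genes, 17 had such a window in the RefSeq table, with 21 windows in all. The GC box was in 16 of these 21 windows and in 32.7% of all 32851 windows of the same length. The half-site was in 7 of 21 against 35.2%, CCAAT in 9 against 33.8%, AP-1 in 1 against 6.75% and the forkhead site in 0 against 3.17%. A full element, GGTCA followed 3 bases later by TGACC, was in 0 of the 21 windows and in 0.0639% of all. These are matches of letters, not sites shown to be bound.

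In each contrast a limma fit over all 20 arrays gave a log2 difference, and a probe was called when its p, adjusted by Benjamini-Hochberg over all 32460 probes, was under 0.05. After E2 for 2 h, 10 of the 27 forkhead probes were called against 28.1% of all probes. Of these 10, 6 were higher (11.1% of all probes) and 4 lower (17% of all). After BPA for 2 h, 11 were called against 49.4% of all, 7 higher (19.3%) and 4 lower (30.2%). HPTE for 2 h gave 14 calls against 48.1%, with 10 higher (19.9%) and 4 lower (28.2%). The higher calls with BPA and HPTE include Foxn1, which was tested only through HPTE 2h, the group where it was highest. The median log2 difference of the 27 was 0.07, 0.08 and 0.10 for E2, BPA and HPTE at 2 h, and that of all probes was -0.06, -0.10 and -0.09.

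By 24 h most called forkhead probes were below vehicle. E2 gave 13 calls against 63.8% of all probes, of which 2 were higher (26.3%) and 11 lower (37.6%). BPA gave 3 calls against 13.1%, 1 higher (5.09%) and 2 lower (8.03%). HPTE gave 9 calls against 34%, 1 higher (14.9%) and 8 lower (19.1%). The medians of the 27 were -0.43, -0.16 and -0.22, beside -0.15, -0.03 and -0.06 over all probes. As shares, 37%, 40.7% and 51.9% of the 27 were called at 2 h with E2, BPA and HPTE, beside 28.1%, 49.4% and 48.1% of all probes. At 24 h the shares were 48.1%, 11.1% and 33.3%, beside 63.8%, 13.1% and 34%. Those for HPTE at 2 h and for BPA and HPTE at 24 h were close to the shares of all probes.

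**Figure D1:**
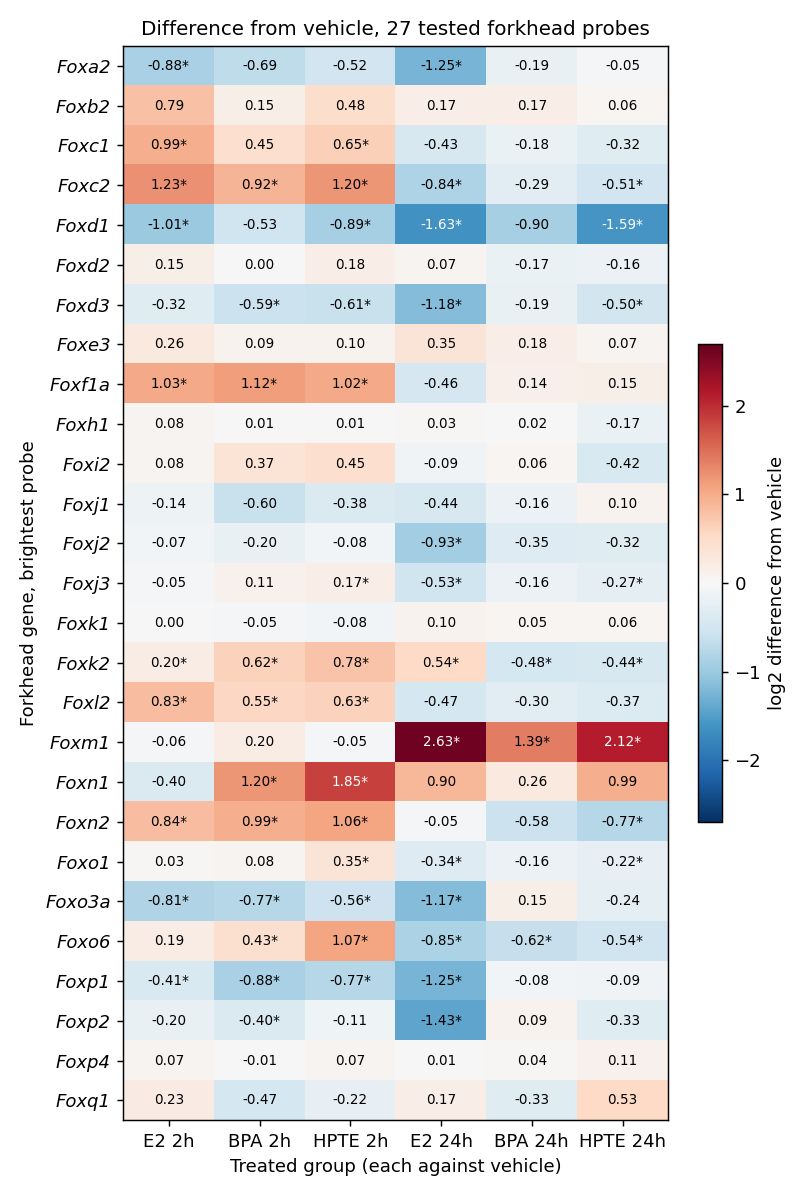
Log2 difference from vehicle (colour and number) for the brightest probe of each of the 27 tested forkhead genes in the 6 treated groups; an asterisk marks an adjusted p under 0.05. Foxc2, Foxf1a, Foxl2 and Foxn2 are red at 2 h, Foxm1 is red at 24 h from 1.39 to 2.63, and the E2 24h column is mostly blue.

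Foxc2 and Foxf1a rose at 2 h with each compound. Foxc2, which acts in mesenchyme and lymphatic vessels, gave scaled signals of 393, 310 and 402 in vehicle uteri. These are signals scaled so that every array has the same 75th percentile, 1679. It gave 845, 819 and 907 after E2 for 2 h, 726, 659 and 687 after BPA and 802, 836 and 893 after HPTE. All 9 treated arrays lay above all 3 vehicle arrays. The log2 difference was 1.23 for E2 (SE 0.10, adjusted p = 1.18e-06), 0.92 for BPA (SE 0.10, adjusted p = 5.71e-06) and 1.20 for HPTE (SE 0.10, adjusted p = 3.97e-07).

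At 24 h the Foxc2 signal had gone below vehicle. It was 216 and 194 after E2, a log2 difference of -0.84 (SE 0.12, adjusted p = 1.42e-05), and 264, 277 and 230 after HPTE, a difference of -0.51 (SE 0.10, adjusted p = 0.00156). BPA at 24 h gave 322, 278 and 300, overlapping vehicle, with a difference of -0.29 that was not called.

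Foxf1a, a regulator of mesenchyme and smooth muscle, was dim but well above background on all 20 arrays. Its scaled signal was 19.8, 23.8 and 28.3 in vehicle uteri, 44.8, 40.7 and 62.5 after E2 for 2 h, 49.4, 51.0 and 55.0 after BPA and 53.1, 47.2 and 44.2 after HPTE. No 2-h array overlapped vehicle, and the log2 differences were 1.03 (SE 0.21, adjusted p = 0.00177), 1.12 (adjusted p = 0.000433) and 1.02 (adjusted p = 0.000876). The E2 call was lost with spike-in scaling (0.95, adjusted p = 0.126). With normexp correction at each spot's own background the E2 and BPA calls were lost (0.07 and 1.69, adjusted p = 0.969 and 0.0608) and the HPTE difference reversed in sign. By 24 h Foxf1a read 17.2 and 17.2 after E2, 30.2, 30.9 and 19.3 after BPA and 24.1, 21.9 and 34.7 after HPTE, and no difference from vehicle was called.

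Foxc1, the close relative of Foxc2, rose 1.99-fold with E2 at 2 h (log2 0.99, adjusted p = 0.000912) and 1.57-fold with HPTE (log2 0.65, adjusted p = 0.00894). With BPA its difference was 0.45 (SE 0.18) and was not called. With spike-in scaling its E2 and HPTE calls were lost (0.92 and 0.9, adjusted p = 0.101 and 0.0594). Foxl2, known from the ovary and uterine stroma, rose with all compounds at 2 h, by 0.83 (E2), 0.55 (BPA) and 0.63 (HPTE) on the log2 scale. Its BPA call was lost without BPA 2h replicate 2 (0.39, adjusted p = 0.135), Vehicle replicate 2 (0.47, adjusted p = 0.0973) or Vehicle replicate 3 (0.56, adjusted p = 0.0503), and its HPTE call without HPTE 2h replicate 1 (0.52, adjusted p = 0.0625) or Vehicle replicate 2 (0.55, adjusted p = 0.0532). Each Foxl2 call at 2 h was lost with spike-in scaling (0.75, 0.63 and 0.88 for E2, BPA and HPTE, adjusted p = 0.186, 0.185 and 0.0518). At 24 h neither Foxc1 nor Foxl2 was called against vehicle, with log2 differences from -0.18 to -0.47.

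Foxn2, a little-studied ubiquitous factor, gave 968, 791 and 744 in vehicle uteri, 1873, 1208 and 1432 after E2 for 2 h, 1564, 2139 and 1323 after BPA and 1885, 1885 and 1446 after HPTE. Every 2-h array was above every vehicle array, with log2 differences of 0.84 (adjusted p = 0.00587), 0.99 (adjusted p = 0.00088) and 1.06 (adjusted p = 0.000464). The E2 call was lost with the slide as a block (0.75, adjusted p = 0.0597) and with spike-in scaling (0.76, adjusted p = 0.187). Another tested Foxn2 probe rose more at 2 h, by 1.60, 1.53 and 1.58, and was called in each. At 24 h the brightest probe read 649 and 994 after E2, 560, 601 and 505 after BPA and 470, 499 and 496 after HPTE. The HPTE difference of -0.77 (SE 0.20, adjusted p = 0.00877) was called, but not with the slide as a block (-0.79, adjusted p = 0.0774), and the other probe was at -0.09 there.

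**Figure D2:**
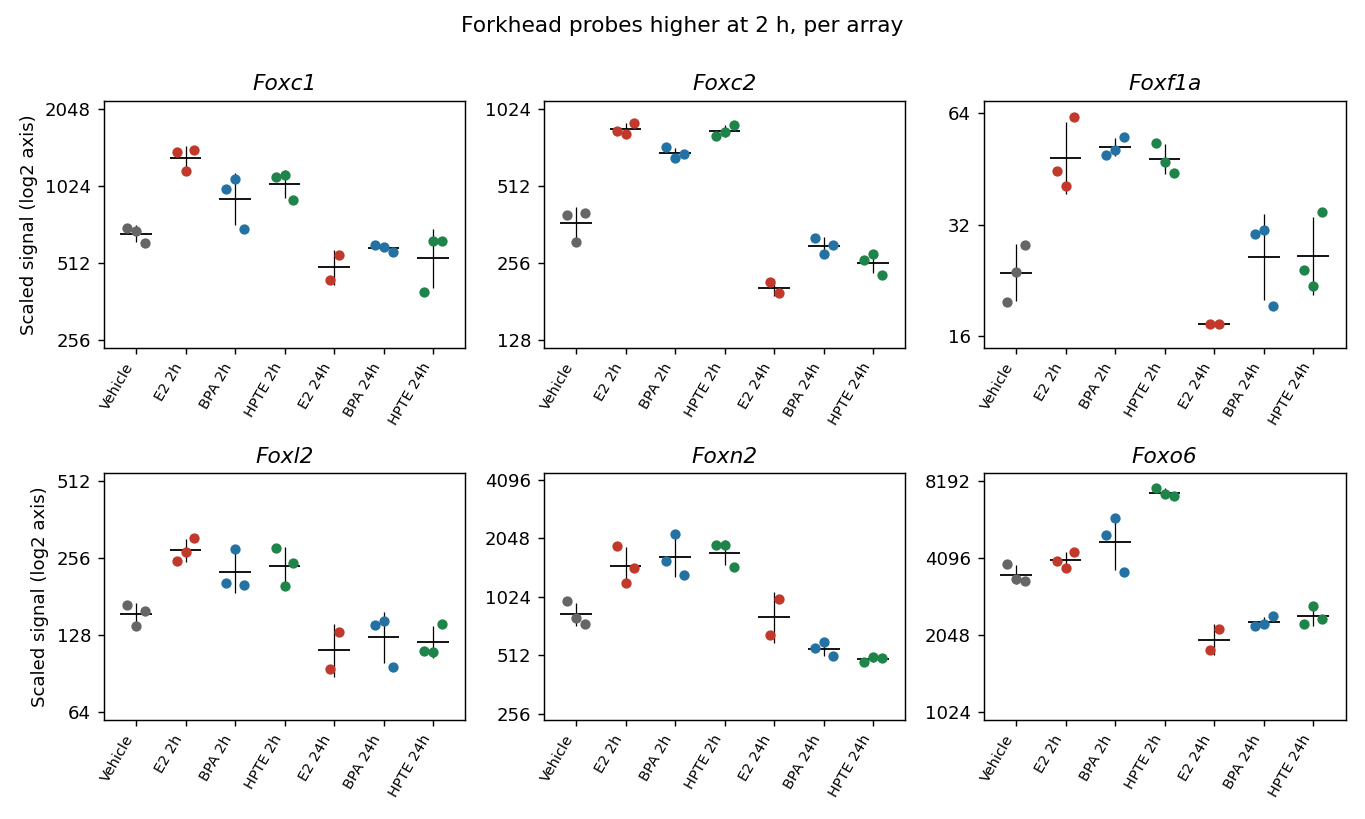
Scaled signal on each array (points; filled where well above background, log2 axis) for 6 forkhead probes in the 7 groups, with the geometric mean (bar) and 1 SD of the log2 values (line). For Foxc2, Foxf1a and Foxn2 the 9 arrays at 2 h lie above the vehicle arrays, and every 24-h array lies below every 2-h array.

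Foxk2 binds the same DNA as the FoxO factors and is known to restrain genes of autophagy. Its brightest probe read 1779, 1919 and 1827 in vehicle uteri, 2146, 2062 and 2140 after E2 for 2 h, 2683, 3028 and 2798 after BPA and 3141, 3289 and 3062 after HPTE. The log2 difference was 0.20 for E2 (adjusted p = 0.035, but -0.03 where arrays were not scaled), 0.62 for BPA (adjusted p = 3.72e-06) and 0.78 for HPTE (adjusted p = 3.89e-07). The E2 call was lost without Vehicle replicate 1 or 3 or any of the E2 2h arrays (adjusted p from 0.0511 to 0.109). At 24 h it read 2590 and 2763 after E2, 1269, 1384 and 1304 after BPA and 1276, 1407 and 1382 after HPTE. Both E2 arrays were above vehicle and all 6 BPA and HPTE arrays below it, with differences of 0.54 (adjusted p = 1.46e-05), -0.48 (adjusted p = 0.000425) and -0.44 (adjusted p = 0.000175).

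The array holds 3 more Foxk2 probes, all measured on 20 arrays, and they shared the early rise but not the late pattern. At 2 h they were called higher in all 3 contrasts, by 0.53, 0.59 and 1.12 with E2, 1.03, 1.17 and 1.64 with BPA and 1.11, 1.0 and 1.74 with HPTE. In uteri collected 24 h after E2 they differed from vehicle by 1.10, 2.01 and 0.01, and only the first 2 were called. After BPA for 24 h they were at -0.30 (called), -0.14 and -0.35, and after HPTE at -0.17, 0.06 and -0.76 (called).

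Foxo1 is the FoxO factor of decidualizing stroma, and vehicle uteri gave signals of its brightest probe of 13350, 12840 and 13640, HPTE for 2 h 16410, 16950 and 17520, and E2 for 24 h 10290 and 10630. HPTE at 2 h thus lay above vehicle (log2 0.35, SE 0.07, adjusted p = 0.000673) and E2 at 24 h below it (-0.34, SE 0.08, adjusted p = 0.00129). HPTE at 24 h was called at -0.22 (adjusted p = 0.0236), a call lost without HPTE 24h replicate 1 (-0.23, adjusted p = 0.0528) or 2 (-0.21, adjusted p = 0.0703) and without Vehicle replicate 1 (-0.22, adjusted p = 0.0607) or 3 (-0.20, adjusted p = 0.0677), and with the slide as a block (-0.19, adjusted p = 0.204). A further Foxo1 probe was called at 0.57 with HPTE and 0.32 with BPA at 2 h and was at 0.04 with E2 at 24 h.

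The brightest probe of Foxo3a, a FoxO factor of quiescence, read 207, 234 and 214 in vehicle uteri. It read 116, 134 and 124 after E2 for 2 h, 129, 107 and 150 after BPA and 139, 157 and 148 after HPTE. All 9 arrays fell below vehicle, by 0.81 (adjusted p = 0.0012), 0.77 (adjusted p = 0.00082) and 0.56 (adjusted p = 0.00758) on the log2 scale. At 24 h E2 gave 124 and 75.8, a difference of -1.17 (SE 0.17, adjusted p = 2.99e-05), while BPA (234, 274 and 220) and HPTE (178, 179 and 196) were not called. The other Foxo3a probe differed from vehicle by 0.46, 0.38 and 0.99 at 2 h, opposite in sign and with adjusted p of 0.457, 0.475 and 0.0605, and by -0.54 with E2 at 24 h. The fall at 2 h therefore rests on 1 of 2 probes.

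Foxo6, a FoxO factor that stays nuclear, rose with the xenoestrogens at 2 h and was lower with all compounds at 24 h. Its signal was 3900, 3392 and 3326 in vehicle uteri, 4012, 3754 and 4348 after E2 for 2 h, 5062, 5893 and 3604 after BPA and 7748, 7308 and 7184 after HPTE. HPTE was 2.10-fold above vehicle (log2 1.07, SE 0.14, adjusted p = 1.96e-05) with no overlap, and BPA 1.35-fold (log2 0.43, adjusted p = 0.0203) with overlap. The BPA call was lost without BPA 2h replicate 1 (0.38, adjusted p = 0.0696) or 2 (0.27, adjusted p = 0.118) and without Vehicle replicate 2 (0.40, adjusted p = 0.0614) or 3 (0.39, adjusted p = 0.0651). At 24 h E2 gave 1781 and 2164, BPA 2218, 2262 and 2430 and HPTE 2259, 2663 and 2360, all below vehicle, with log2 differences of -0.85, -0.62 and -0.54 (adjusted p = 0.000253, 0.0102 and 0.00848). The BPA call at 24 h was lost without Vehicle replicate 1 (-0.55, adjusted p = 0.0562). With spike-in scaling the calls at 24 h were lost with E2, BPA and HPTE (-0.82, -0.74 and -0.84, adjusted p = 0.0609, 0.349 and 0.0699). The BPA call at 2 h was lost there as well (0.52, adjusted p = 0.269).

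A list of 16 genes linked to FoxO activity held 15 that were tested. With E2, BPA and HPTE at 2 h, 5, 10 and 11 of the 15 were called lower, against 17%, 30.2% and 28.2% of all probes. In each of these contrasts 2 were called higher, against 11.1%, 19.3% and 19.9% of all probes. Those lower included Pik3ip1, an inhibitor of PI3 kinase (-0.90, -1.92 and -2.08), and Sesn1, a stress-response inhibitor of mTOR (-0.93, -1.18 and -1.90). Fbxo32, the muscle atrophy ligase, was called lower with BPA and HPTE (-1.47 and -1.40) and was at -0.16 with E2. Gadd45a, which halts the cell cycle after damage, was called higher with each compound (1.51, 1.04 and 1.39).

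At 24 h 13 of the 15 were called lower with E2, against 37.6% of all probes, and 1 higher (26.3%), with a median of -1.22. BPA gave 1 lower (8.03% of all probes) and 0 higher (5.09%), and HPTE gave 3 lower (19.1%) and 1 higher (14.9%). Fbxo32 was at -2.54 after E2 for 24 h, Klf15, a glucocorticoid-responsive factor, at -2.20, and Bcl2l11, a killer protein of the Bcl2 family, at -1.69. Sod2, the mitochondrial superoxide dismutase, was the one called higher (1.04). The medians at 2 h were -0.43, -0.84 and -1.16, and at 24 h 0.06 for BPA and -0.33 for HPTE. Adipocyte and endothelial markers were also lower after E2 for 24 h. Smooth muscle and epithelial markers went the other way, with 4 of 6 and 6 of 8 called higher (26.3% of all probes) and 0 lower. Of 6 stromal markers, 3 were called higher and 3 lower. The summed signal of 4 adipocyte markers, 3 of them called lower, was 26700 to 33600 against 67100 to 151000 in vehicle uteri, and that of 6 endothelial markers, 4 of them called lower, was 16100 to 17900 against 36000 to 40800. The part of these cell types in the FoxO-linked difference was not tested.

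Among 16 genes that govern FoxO proteins, mostly of the PI3 kinase pathway and with Foxk1 among them, 3, 4 and 4 were called higher and 1, 3 and 2 lower at 2 h with E2, BPA and HPTE, beside 11.1%, 19.3% and 19.9% of all probes higher and 17%, 30.2% and 28.2% lower. Sgk1, a kinase that phosphorylates FoxO factors as Akt does, rose by 2.22, 2.10 and 2.14 and Akt1 by 0.41, 0.76 and 0.96. Pik3r1, the regulatory subunit of PI3 kinase, fell by 0.84, 1.15 and 1.32. With E2 at 24 h the list had 4 higher and 9 lower (26.3% and 37.6% of all probes), among them Igf1, the growth factor upstream (2.10), and its receptor Igf1r (-2.02). BPA gave 1 and 1 (5.09% and 8.03%), and HPTE 0 and 6 (14.9% and 19.1%).

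The brightest Foxp1 probe was lower at 2 h with each compound, and Foxp1 and Foxp2 were lower at 24 h with E2. Foxp1, a repressor found in stroma and immune cells, gave 12060, 10010 and 10700 in vehicle uteri, 9062, 7895 and 7675 after E2 for 2 h, 6294, 5342 and 6206 after BPA and 6718, 6950 and 5542 after HPTE. All 9 arrays were below vehicle, by 0.41 (adjusted p = 0.00975), 0.88 (adjusted p = 1.22e-05) and 0.77 (adjusted p = 2.99e-05) in log2 units, the E2 call sitting at adjusted p = 0.05 without Vehicle replicate 1 (-0.34). The E2 and HPTE calls at 2 h were lost with spike-in scaling (-0.49 and -0.52, adjusted p = 0.37 and 0.181). The E2 call was also lost with only the groups compared (-0.41, adjusted p = 0.0557) and with per-spot normexp correction (-0.4, adjusted p = 0.178). E2 for 24 h gave 5017 and 4161, a fall to 2.38-fold below vehicle (log2 -1.25, SE 0.12, adjusted p = 3.76e-07). BPA (10340, 10100 and 10460) and HPTE (9798, 10140 and 10680) overlapped vehicle at 24 h and were not called. Of the other 2 Foxp1 probes, both were called lower with E2 at 24 h (-0.78 and -1.88). At 2 h the first was not called with E2 (-0.25, adjusted p = 0.335) or BPA (-0.43, adjusted p = 0.0575) but was with HPTE (-0.51, adjusted p = 0.0294). The second was called lower at 2 h with each compound (-0.82, -1.22 and -1.14).

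Foxp2, a relative of Foxp1 known from lung and brain, gave 1383, 1056 and 914 in vehicle uteri, 812, 955 and 1144 after E2 for 2 h, 796, 871 and 846 after BPA and 1021, 1175 and 889 after HPTE. Only BPA was called at 2 h (-0.40, adjusted p = 0.0465), and it was no longer called when any 1 of 13 of the 20 arrays was left out, falling to -0.23 (adjusted p = 0.234) without Vehicle replicate 1. At 24 h E2 gave 441 and 377, well below all other arrays, a log2 difference of -1.43 (SE 0.17, adjusted p = 4.04e-06), and a further probe was at -1.82. BPA (1179, 1157 and 1186) and HPTE (998, 767 and 876) were not called at 24 h.

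Foxa2, the factor of uterine glands, read 6396, 8398 and 6150 in vehicle uteri and 3168, 4892 and 3438 after E2 for 2 h. BPA for 2 h gave 2584, 6165 and 4918 and HPTE 5942, 3751 and 5075. The E2 difference was -0.88 (SE 0.28, adjusted p = 0.0295). That call was lost without E2 2h replicate 1 (-0.75, adjusted p = 0.0973) or 3 (-0.81, adjusted p = 0.0895), or without Vehicle replicate 1 (-0.93, adjusted p = 0.0535) or 2 (-0.74, adjusted p = 0.112). After 24 h of E2 it read 2855 and 2946, 2.38-fold below vehicle (log2 -1.25, SE 0.31, adjusted p = 0.00264), while BPA (5273, 7340 and 5773) and HPTE (6186, 5679 and 8443) overlapped vehicle.

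Epithelial markers moved differently in the groups where Foxa2 read lower. The summed signal of 8 epithelial markers ranged from 153000 to 178000 in vehicle uteri. After E2 for 24 h it ranged from 397000 to 444000, where 6 of 8 were called higher (26.3% of all probes) and 0 lower (37.6%). After E2 for 2 h it ranged from 181000 to 199000, with 3 called higher (11.1%) and 0 lower (17%). BPA for 2 h gave 99200 to 147000, with 1 called higher (19.3%) and 4 lower (30.2%). HPTE for 2 h gave 146000 to 155000, with 1 called higher (19.9%) and 1 lower (28.2%). The part of epithelial cells in the Foxa2 difference was not tested. Of 9 gland genes linked to Foxa2, 6 were tested. With E2 at 24 h 2 were called higher and 1 lower, against 26.3% and 37.6% of all probes. At 2 h with E2, BPA and HPTE, 1, 1 and 1 were higher (11.1%, 19.3% and 19.9% of all probes). In the same contrasts 1, 2 and 2 were lower (17%, 30.2% and 28.2%). Sox9, a progenitor factor, rose with E2, BPA and HPTE at 2 h by 1.62, 1.93 and 1.95, and Sox17, which acts with Foxa2 in glands, was called lower with BPA and HPTE at 2 h (-0.79 and -0.70) and with E2 at 24 h (-0.62).

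Foxd3, a factor of neural crest and stem cells, read 57.1, 62.8 and 50.03 in vehicle uteri, 49.9, 42.1 and 44.3 after E2 for 2 h, 35.6, 36.3 and 40.6 after BPA and 42.1, 39.2 and 30.8 after HPTE. All 9 lay below vehicle, and BPA (-0.59, adjusted p = 0.0137) and HPTE (-0.61, adjusted p = 0.0121) were called. At 24 h E2 gave 20.2 and 30.9, a difference of -1.18 (SE 0.20, adjusted p = 0.000122), BPA 55.3, 55.7 and 39.6 and HPTE 32.9, 42.6 and 45.6, the last called at -0.50 (adjusted p = 0.0466). With quantile normalization the BPA, HPTE 2-h and HPTE 24-h calls were lost (-0.31, -0.22 and -0.16), and each was lost without Vehicle replicate 2 (-0.51, -0.53 and -0.42, adjusted p = 0.0564, 0.051 and 0.149). The HPTE 2-h call was also lost without HPTE 2h replicate 3 (-0.47, adjusted p = 0.0644), and the HPTE 24-h call without any 1 of 13 of the 20 arrays (adjusted p from 0.0505 to 0.195).

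Foxd1, a stromal factor best known from the kidney, was near background. Its signal was 54.4, 27.7 and 22.9 in vehicle uteri, 17.1, 16.4 and 15.2 after E2 for 2 h, 17.6, 25.1 and 26.1 after BPA and 19.8, 19.5 and 14.1 after HPTE, with 14 of 20 arrays well above background. E2 (-1.01, adjusted p = 0.0366) and HPTE (-0.89, adjusted p = 0.0404) were called at 2 h. Without Vehicle replicate 1, its brightest array, these became -0.64 (adjusted p = 0.183) and -0.52 (adjusted p = 0.215). Each was also lost without any of its own treated arrays (adjusted p from 0.0635 for E2 and from 0.0559 for HPTE). Both E2 24h arrays (9.63 and 11.5) were not well above background, so the probe was at least 2.37-fold lower than vehicle (adjusted p = 0.00146), and HPTE gave 13.5, 6.72 and 13.8 (-1.59, adjusted p = 0.00228), with 1 of the 3 arrays well above background. BPA gave 21.5, 21.4 and 11.5 and was not called.

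**Figure D3:**
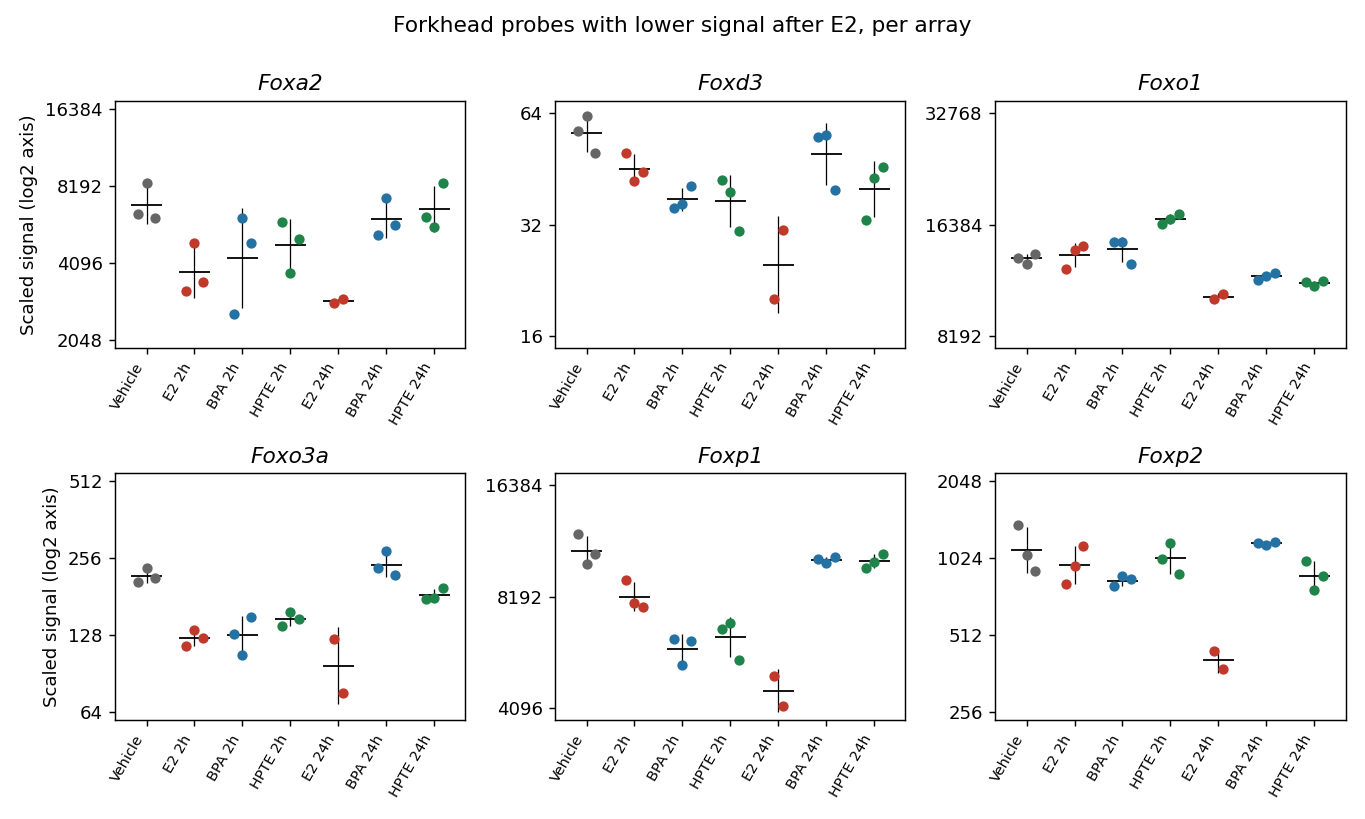
Scaled signal on each array (points, log2 axis) for 6 forkhead probes in the 7 groups, with the geometric mean (bar) and 1 SD of the log2 values (line). For Foxp1, Foxp2 and Foxa2 both E2 24h arrays lie below the vehicle arrays, and the BPA 24h and HPTE 24h arrays lie among or near them.

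Foxm1 showed the largest difference from vehicle of any member in the 3 contrasts at 24 h. It read 247, 194 and 196 in vehicle uteri, 180, 196 and 235 after E2 for 2 h, 221, 309 and 207 after BPA and 208, 171 and 240 after HPTE, so the 2-h groups overlapped vehicle and none was called. At 24 h it read 1290 and 1317 after E2, 604, 493 and 562 after BPA and 844, 1003 and 913 after HPTE. The groups at 24 h did not overlap each other or vehicle. The rise was 6.18-fold with E2 (log2 2.63, SE 0.18, adjusted p = 1.73e-08), 2.61-fold with BPA (log2 1.39, SE 0.16, adjusted p = 0.000202) and 4.35-fold with HPTE (log2 2.12, SE 0.16, adjusted p = 1.1e-06).

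Genes of mitosis linked to Foxm1 were also higher at 24 h. Of 14 such genes 13, 12 and 13 were called higher at 24 h with E2, BPA and HPTE and 0 lower, with medians of 2.78, 1.55 and 2.44, where 26.3%, 5.09% and 14.9% of all probes were called higher. Ccnb1, the mitotic cyclin, was at 3.53, 1.70 and 2.76, Birc5 (survivin) at 3.34, 1.75 and 2.76, and Plk1, a mitotic kinase, at 2.91, 1.30 and 2.24. Cdc25b, the phosphatase that starts mitosis, stayed near vehicle (-0.11, 0.14 and 0.26) after being called lower at 2 h (-0.50, -0.96 and -0.79). At 2 h the medians were 0.00, 0.25 and 0.09. Summed epithelial marker signal was 153000 to 178000 on the vehicle arrays, 212000 to 224000 on the BPA 24h arrays and 263000 to 284000 on the HPTE 24h arrays, and its part in the Foxm1 difference was not tested.

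Foxn1, the factor of thymus and hair, was well above background on 10 of 20 arrays. Its signal was 17.1, 5.67 and 3.94 in vehicle uteri, 7.27, 5.16 and 4.46 after E2 for 2 h, 19.9, 20.1 and 11.6 after BPA and 22.7, 25.2 and 31.5 after HPTE. HPTE 2h was the 1 group with every array well above background, so the probe was tested only through the group where it was highest, and 1 of 3 vehicle arrays and 2 of 3 BPA 2h arrays were well above background. The fitted differences, which therefore rest in part on background signal, were 1.85 for HPTE (SE 0.44, adjusted p = 0.00268), whose arrays lay above vehicle, and 1.20 for BPA (SE 0.44, adjusted p = 0.034), whose arrays overlapped it. With normexp correction at each array's median local background these were 0.23 (adjusted p = 0.139) and 0.13 (adjusted p = 0.428). The BPA call was lost without BPA 2h replicate 1 or 2 (1.08 and 1.07, adjusted p = 0.102 and 0.104) and without Vehicle replicate 2 or 3 (1.02 and 0.76, adjusted p = 0.113 and 0.171). No call was made at 24 h, where E2 gave 10.98 and 16.8, BPA 6.93, 14.5 and 6.49 and HPTE 13.6, 13.5 and 16.5.

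**Figure D4:**
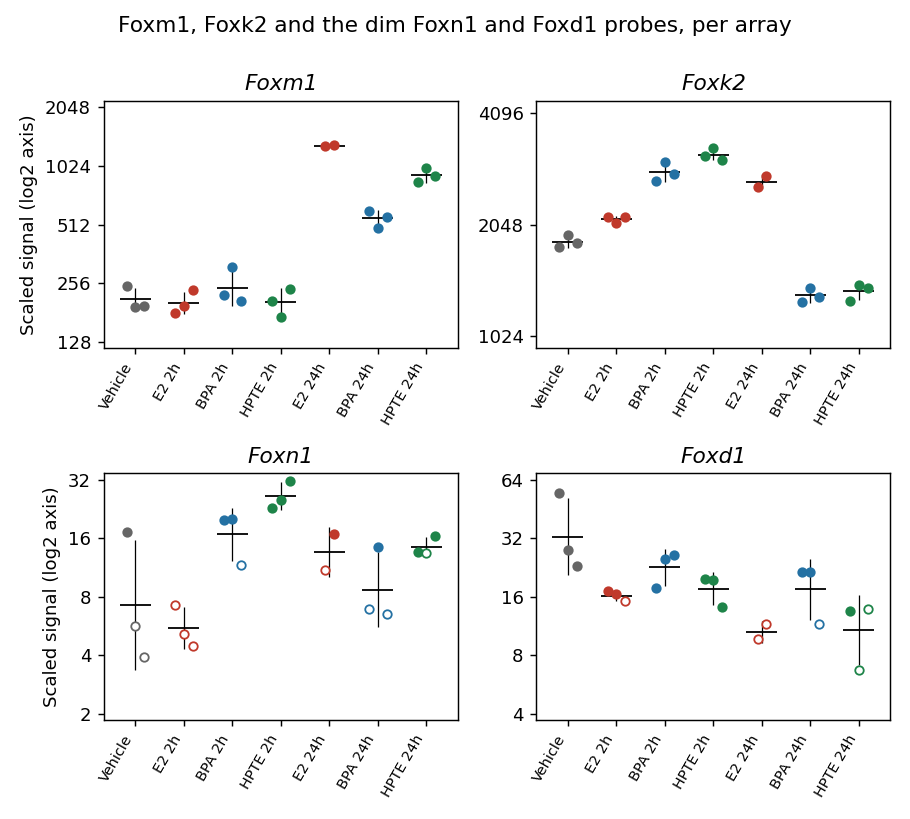
Scaled signal on each array for the brightest probes of Foxm1, Foxk2, Foxn1 and Foxd1 in the 7 groups (log2 axis; filled points well above background, open points not; bar, geometric mean; line, 1 SD of the log2 values). Foxm1 rises at 24 h from between 194 and 247 in vehicle to 493 or more, and Foxk2 at 24 h is above vehicle after E2 and below it after BPA and HPTE.

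In the class J genes, Foxj2 and Foxj3 were lower with E2 at 24 h. Foxj2 fell from between 3705 and 4729 in vehicle uteri to 2172 and 2287 (log2 -0.93, adjusted p = 3.56e-05). Foxj3 was called at -0.53 (adjusted p = 1.21e-05) with E2 and -0.27 (adjusted p = 0.00434) with HPTE at 24 h. At 2 h it was called at 0.17 with HPTE (adjusted p = 0.0385), 1.13-fold, a call lost without any 1 of 6 of the 20 arrays (adjusted p from 0.0501 to 0.156). Its other 2 probes were at 0.09 and -1.86 with E2 at 24 h, the latter called, and at 1.06 (called, adjusted p = 0.000108) and -0.11 with BPA at 2 h.

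Foxj1, the master factor of ciliated cells, was not called in any of the 6 contrasts with vehicle, its log2 differences running from -0.60 to 0.10 with SE 0.31 or 0.34. Of 11 genes of motile cilia, 10 were tested, and 7, 7 and 7 were called lower at 2 h and 7, 6 and 6 at 24 h with E2, BPA and HPTE, where 17%, 30.2% and 28.2% of all probes were called lower at 2 h and 37.6%, 8.03% and 19.1% at 24 h. Tekt1, an axonemal tektin, was at -3.96, -2.22 and -3.33 at 2 h, and Tppp3, a tubulin-binding protein, was called higher in every contrast with vehicle (0.48 to 1.46). Markers of oviduct and transcripts of sperm cells were lower in the same groups. Of 4 oviduct markers, among them Tekt1 and Dynlrb2, which are also in the list of cilia genes, 3 were called lower in each of the 6 contrasts, and their summed signal was 2180 to 5150 in vehicle uteri and between 880 and 1410 in the treated groups. The summed signal of 6 sperm markers ran from 50400 to 165000 in vehicle uteri, from 752 to 2350 after E2 for 2 h, 9820 to 20400 after BPA and 3130 to 9360 after HPTE. At 24 h it ran from 514 to 1210, 4990 to 8810 and 2140 to 2900. Many axonemal genes are also expressed in male germ cells, and the part of oviduct or sperm transcripts in the ciliary difference was not tested.

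**Figure D5:**
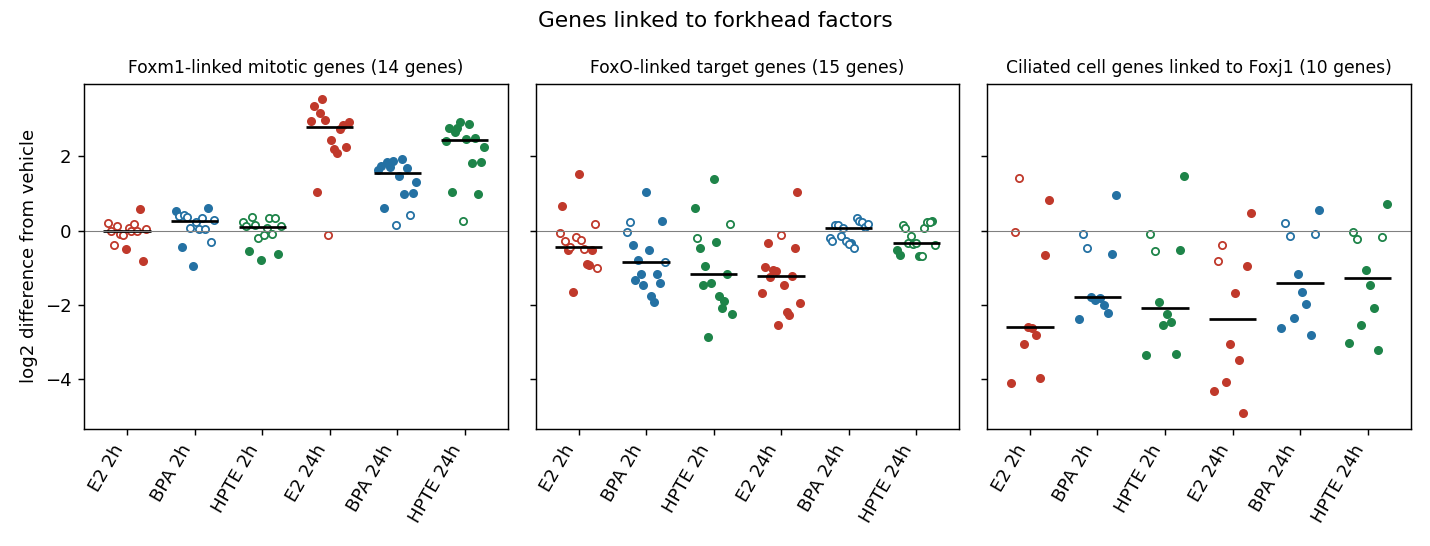
Log2 difference from vehicle of each tested gene (point; filled where the adjusted p was under 0.05) in 3 lists linked to forkhead factors, by treated group, with the median as a bar. The 14 mitotic genes lie near 0 at 2 h and mostly above 1 at 24 h, the 15 FoxO-linked genes are mostly below 0 at 2 h and after E2 for 24 h, and 6 or 7 of 10 ciliary genes are called below vehicle in each group.

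Signal of other tissues also differed among single arrays. Acinar pancreas markers summed to 3110000 on E2 2h replicate 2, while the vehicle arrays gave 960 to 1100, and on the E2 24h arrays they summed to 8420 and 21300. The lowest E2 2h sum was 745. All 7 markers were called higher in the E2 2h group (11.1% of all probes). Their median log2 difference there was 6.88 over 3 arrays, more than replicate 2 alone could give. Foxa3, a factor of pancreas and liver that was well above background on no other array, read 129 on E2 2h replicate 2. Vehicle replicate 1 had the highest signal of Prm1, a protamine of sperm (89600). The part of either tissue in the results was not tested.

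The remaining 9 tested members were not called against vehicle in any group. They were Foxb2, Foxd2, Foxe3, Foxh1, Foxi2, Foxj1, Foxk1, Foxp4 and Foxq1, with log2 differences from -0.60 (Foxj1, BPA 2h) to 0.79 (Foxb2, E2 2h). Foxk1, the partner of Foxk2, stayed between -0.08 and 0.10 (SE 0.20 to 0.22), and Foxh1, a partner of activin signalling, between -0.17 and 0.08. A second Foxp4 probe was called at -0.55 with HPTE at 2 h.

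The other 11 genes were too dim to test. Foxa1, Foxd4, Foxe1, Foxi1 and Foxn4 were not well above background on any of the 20 arrays, and Foxa3, Foxb1 and Foxl1 were so on 1 and Foxf2 and Foxp3 on 4. Foxb1 read 47.1 on its 1 array, E2 2h replicate 1, and Foxl1 97.9 on HPTE 24h replicate 3. Foxp3, which defines regulatory T cells, read at most 25.4 on any array (BPA 2h replicate 2). For these genes an array signal near background does not show that the gene was silent.

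In a contrast of 24 h with 2 h within a compound the vehicle arrays enter only the shared estimate of the spread, not the difference. With E2, 15 of 27 members were called against 56% of all probes, 3 higher (25.9%) and 12 lower (30.1%). BPA gave 13 against 48.4%, 4 higher (28.2%) and 9 lower (20.2%). HPTE gave 12 against 54.1%, 3 higher (29.5%) and 9 lower (24.6%). Foxc2 dropped most steeply among those lower with E2, by 2.06 on the log2 scale (4.18-fold, adjusted p = 4.04e-09), and by 1.20 with BPA and 1.72 with HPTE. Foxo6 fell by 1.04, 1.05 and 1.61, Foxn2 by 0.88, 1.57 and 1.82, and Foxl2 by 1.30, 0.85 and 1.0. Leaving out 1 array ended some of these calls, namely E2 24h replicate 2 for Foxn2 (adjusted p = 0.0856) and Foxd3 (0.0606) with E2, and BPA 2h replicate 2 for Foxc1 (0.0554) and 1 for Foxp2 (0.0538) with BPA. Foxn1 passed the threshold with E2 (fitted log2 1.30, adjusted p = 0.0348), but 0 of 3 E2 2h arrays and 1 of 2 E2 24h arrays were well above background, so this is no measured change, and the call was lost without E2 2h replicate 2 or 3 or E2 24h replicate 3 (adjusted p from 0.0736 to 0.218).

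Between the times, Foxp1 was 1.79-fold lower at 24 h than at 2 h with E2 (adjusted p = 2.57e-05) and higher with BPA (1.74-fold, adjusted p = 2.4e-05) and HPTE (1.60-fold, adjusted p = 7.44e-05). With spike-in scaling these calls were lost (log2 -0.74, 0.58 and 0.13, adjusted p = 0.0718, 0.138 and 0.716). Another Foxp1 probe was not called with BPA (0.43, adjusted p = 0.0609) or HPTE (0.23, adjusted p = 0.299), while a further probe was called with both (0.99 and 0.67). Foxp2 was 2.36-fold lower with E2 (adjusted p = 2.24e-05) and 1.40-fold higher with BPA (adjusted p = 0.017), while its HPTE difference of -0.22 (adjusted p = 0.246) was not called. Foxo3a recovered with BPA (log2 0.92, adjusted p = 0.000181), although its other probe was at -0.51 there. Doses of E2 and of BPA or HPTE differ, so the difference between compounds was not tested.

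BPA and HPTE were given at the same dose and times and so could be compared directly. Both carry a pair of phenol rings on a central carbon, which bears methyl groups in BPA and a trichloromethyl group and a hydrogen in HPTE. The 27 members gave 54 comparisons over both times. At 2 h no member was called (0.437% of all probes were), and 4 had an unadjusted p under 0.05. These were Foxo6 (HPTE higher by 0.64, 95% interval 0.34 to 0.94, adjusted p = 0.0638), Foxo1 (0.27, 0.12 to 0.42, adjusted p = 0.102), Foxc2 (0.29, 0.08 to 0.50, adjusted p = 0.18) and Foxk2 (0.16, 0.01 to 0.31, adjusted p = 0.252). In 23 of the 27 the interval lay within 1 log2 unit of 0 on both sides.

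At 24 h 2 members were called, against 4.08% of all probes, and both were higher with HPTE. Foxm1 differed by 0.74 (1.67-fold, 95% interval 0.40 to 1.08, adjusted p = 0.0236). Foxq1, an epithelial factor, gave 2343, 1712 and 1913 with HPTE and 1080, 1161 and 1037 with BPA, a difference of 0.85 (1.81-fold, 0.38 to 1.32, adjusted p = 0.0422), while vehicle uteri gave 1528, 1001 and 1682. Neither call survived the fit with the slide as a block (0.77 and 0.74, adjusted p = 0.0892 and 0.175). Leaving out BPA 24h replicate 2 or 3 or HPTE 24h replicate 2 or 3 gave adjusted p for Foxm1 of 0.118, 0.0592, 0.101 and 0.0561, and each BPA 24h or HPTE 24h array left out took Foxq1 past 0.05 (0.0832 to 0.136), as did E2 2h replicate 3 and each HPTE 2h array (0.0535 to 0.0573). Of the 14 mitotic genes 9 were called higher with HPTE than with BPA at 24 h and 0 lower, with a median of 0.84. The share of all probes called in this contrast, 4.08%, counts both directions. Foxp2 (-0.42, interval -0.76 to -0.08) and Foxo3a (-0.39, interval -0.73 to -0.05) were lower with HPTE but not called, and 22 of 27 intervals lay within 1 log2 unit of 0.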

How the data were processed

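Each array was a 1-colour Agilent whole-genome mouse array hybridised with Cy3-labelled uterine RNA. The authors deposited scanner files from Agilent Feature Extraction (version 9.5 in the submitters' processing notes), whose processed signal is a background-subtracted intensity per spot, with other flags for outlying, saturated and well-above-background spots. The file headers name mouse build mm7. The series table held the same processed values. Control spots and outlying spots (46 to 134 per array) were left out and spots of a probe were averaged, giving 41174 probes. From the log2 intensity of each array its own 75th percentile (1319.8 to 2046.4) was subtracted, and the share of probes flagged well above background ran from 72.72% to 81.35%. Probes well above background on all arrays of at least 1 group, and with a value missing on at most 2 arrays, were tested (32460).

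Groups were compared with limma 3.58.1 in R 4.3.3 (lmFit and eBayes, a mean for each of the 7 groups, 20 arrays), two-sided, with Benjamini-Hochberg adjustment over all tested probes and a threshold of 0.05. The study's own significance software was not used here. The scripts were tested on simulated data. Each array held 1 uterus and the number of arrays limits the precision. Arrays lay on 6 slides scanned on 2 days. Replicate numbers did not pair the arrays, since same-numbered arrays of different groups had correlations of their deviations from -0.361 to 0.333 (median -0.0486, 57 pairs).

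The values of 1 member that was too dim to test are not reported here. The members and gene lists were chosen with earlier results of these data known. Signals on every array are given for members called with at least a 2-fold change and no overlap with vehicle in 1 or more contrasts with vehicle, and for Foxk2, Foxo1 and Foxq1, added after their values were seen. From each gene list the genes with the largest called changes in a contrast are named, and Plk1 and Sod2 were added after their values were seen. Alternatives tried were quantile normalization, no scaling, spike-in scaling, normexp background correction (offset 50), other filters on dim probes, fits with only the groups compared, array weights, a slide block, a replicate block, the mean of all probes of a gene, a further 2-fold requirement, and leaving out each array or the slide scanned on the later day.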

Additional observations from a re-analysis of the deposited data

Results flagged for a closer look

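These results stand out because a forkhead probe differed between the 2 times of one compound or between BPA and HPTE. Groups held 2 or 3 arrays, too few for the test of a single outlying array. Values are log2 differences with an adjusted p under 0.05 unless stated. With E2 at 24 h against 2 h, Foxc1 was at -1.43, Foxc2 at -2.06, Foxd3 at -0.86, Foxf1a at -1.49, Foxj2 at -0.86, Foxj3 at -0.48, Foxl2 at -1.30, Foxn2 at -0.88, Foxo1 at -0.37, Foxo6 at -1.04, Foxp1 at -0.84 and Foxp2 at -1.24. Foxk2 (0.34) and Foxm1 (2.69) were higher at 24 h. Foxn1 had a fitted difference of 1.30, but it was well above background on 0 of 3 E2 2h arrays and 1 of 2 E2 24h arrays, so no change was measured.

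With BPA, Foxc1 was at -0.64, Foxc2 at -1.20, Foxf1a at -0.98, Foxj3 at -0.27, Foxk2 at -1.10, Foxl2 at -0.85, Foxn2 at -1.57, Foxo1 at -0.24 and Foxo6 at -1.05, and Foxm1 (1.19), Foxo3a (0.92), Foxp1 (0.80) and Foxp2 (0.49) were higher at 24 h. With HPTE, Foxc1 was at -0.96, Foxc2 at -1.72, Foxf1a at -0.87, Foxj3 at -0.44, Foxk2 at -1.22, Foxl2 at -1.0, Foxn2 at -1.82, Foxo1 at -0.58 and Foxo6 at -1.61, and Foxm1 (2.17), Foxp1 (0.68) and Foxq1 (0.75) were higher.

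HPTE exceeded BPA at 24 h for Foxm1 (0.74) and Foxq1 (0.85). Foxk2 at 24 h lay above vehicle on both E2 arrays and below it on all BPA and HPTE arrays. Its E2 difference exceeded that of BPA by 1.02 and that of HPTE by 0.98, a difference between compounds given at unequal doses that was not tested. One of the other 3 Foxk2 probes had the opposite sign with E2 between the times (-1.11).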

How the results depend on the processing

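Of 102 member calls over the 11 contrasts, 33 were not lost under any alternative, 64 under all but per-spot normexp and spike-in scaling, and 79 when each single array was left out. A call counted as lost only where its sign was kept and its adjusted p was no longer under 0.05. Reversed calls and calls of probes that a filter left untested were not counted as lost. Foxf1a with HPTE at 2 h, which reversed with per-spot normexp, is therefore among the 33. The count of members called changed as follows. With at least a 2-fold change also required it was 3, 2 and 5 at 2 h (E2, BPA, HPTE), 7, 1 and 2 at 24 h, 8, 5 and 6 for 24 h against 2 h, and 0 for HPTE against BPA at 24 h. Spike-in scaling, which moved the median of all probes to -0.36 for HPTE at 24 h, 0.15 for HPTE at 2 h, -0.16 for BPA at 24 h, -0.15 for BPA and -0.50 for HPTE between the times, and 0.19 and -0.20 for HPTE against BPA at 2 h and 24 h, gave 1, 5 and 6 at 2 h, 1 (BPA) and 3 (HPTE) at 24 h, 8 (E2) and 7 (BPA) between the times and 0 for HPTE against BPA at 24 h. Normexp with each spot's own background gave 3, 4 and 6 at 2 h, 4 for HPTE at 24 h, 5 for BPA between the times, and 15 and 0 for HPTE against BPA at 2 h and 24 h. Normexp with the median local background, chosen after seeing the data, and array weights each gave 1 for HPTE against BPA at 2 h, and array weights gave 5 for BPA at 24 h. HPTE against BPA at 24 h gave 0 without scaling, with only the groups compared, with the slide as a block and without the slide scanned on the later day, and 1 without a filter on dim probes. Quantile normalization raised the 24-h calls to 18 with E2, of which 7 were above vehicle and 11 below, and to 12 with HPTE, of which 4 were above and 8 below. Without scaling the median of all probes ran from -0.29 (E2 at 2 h) to 0.17 (E2 between the times). Scaling also moved the split of higher and lower calls. For HPTE between the times it was 3 and 9, and became 1 and 12 with spike-in scaling and 2 and 12 without scaling. For BPA between the times it was 4 and 9, and became 1 and 6 with spike-in scaling. At 2 h the split was 7 and 4 for BPA and 10 and 4 for HPTE, and became 9 and 3 and 11 and 1 with quantile normalization and 4 and 1 and 6 and 0 with spike-in scaling, and for HPTE 9 and 2 without scaling. With spike-in scaling it was 1 and 0 for E2 at 2 h (6 and 4), 1 and 0 for BPA at 24 h (1 and 2) and 1 and 2 for HPTE at 24 h (1 and 8).

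Leaving out single arrays gave 6 to 10 calls for E2, 7 to 12 for BPA and 11 to 14 for HPTE at 2 h, 13 to 14, 2 to 5 and 7 to 10 at 24 h, 14 to 15, 12 to 14 and 12 to 13 between the times, and 0 to 1 and 0 to 2 for HPTE against BPA at 2 h and 24 h. E2 at 2 h fell to 6 without Vehicle replicate 1, BPA at 2 h to 7 and BPA at 24 h rose to 5 without Vehicle replicate 2, and HPTE against BPA at 2 h gave 1 without BPA 2h replicate 2 or 3.

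Direction reversed for Foxk2 with E2 at 2 h without scaling (-0.03) and for Foxo3a with HPTE at 2 h over the mean of its probes (0.21). With per-spot normexp it reversed for Foxd3 (1.25) and Foxo3a (0.60) with BPA at 2 h, Foxf1a (-0.12) and Foxn1 (-0.33) with HPTE at 2 h, Foxn1 with E2 (-0.05) and Foxo3a with BPA (-0.30) between the times, and, in HPTE against BPA at 2 h, for Foxb2 (-2.09), Foxd2 (-1.93), Foxe3 (-1.61), Foxi2 (-1.96), Foxn1 (-1.92), Foxo3a (-1.16) and Foxp4 (-1.61). On 4 arrays single spots had a local background far above their signal (lowest difference -62400), and the median normexp signal was 472.9 to 1614 there against 232.2 to 303.9 elsewhere.

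The fit with the replicate number as a block, although the numbers did not pair the arrays (5 of 20 arrays were closest to one of the same number), lost 4 calls: Foxd3 with HPTE at 24 h (-0.50, adjusted p = 0.0667), Foxj3 with HPTE at 2 h (adjusted p = 0.0549), Foxp2 with BPA at 2 h (adjusted p = 0.0619) and Foxq1 for HPTE against BPA at 24 h (0.85, adjusted p = 0.0634), leaving 1 member called there. It changed no other call. With the slide as a block 12 calls were lost: at 2 h Foxa2 (-0.97, adjusted p = 0.0615), Foxk2 (0.21, adjusted p = 0.124) and Foxn2 (0.75, adjusted p = 0.0597) with E2, Foxn1 (1.05, adjusted p = 0.123) and Foxo6 (0.36, adjusted p = 0.0701) with BPA and Foxj3 (0.18, adjusted p = 0.0561) with HPTE, at 24 h Foxd3 (-0.34, adjusted p = 0.337), Foxn2 (-0.79, adjusted p = 0.0774) and Foxo1 (-0.19, adjusted p = 0.204) with HPTE, Foxo1 with BPA between the times (-0.23, adjusted p = 0.0957), and Foxm1 (0.77, adjusted p = 0.0892) and Foxq1 (0.74, adjusted p = 0.175) for HPTE against BPA at 24 h. Within slides, 118 of 120 differences had the sign of their call, the exceptions being Foxn1 (-0.56) and Foxo6 (-0.11) with BPA at 2 h. Signals near background limit Foxd1, Foxn1, Foxb2 and Foxi2, and groups of 2 or 3 arrays limit all results.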
